A study of Mus musculus with 12 samples.

Results

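A set of 9 histone lysine methyltransferase genes and the deacetylase gene Hdac7 were followed in Vg4+Vd4+ gamma delta T cells, taken from lymph nodes that drain the skin of C57BL/6 mice. The genes were Kmt2a, Kmt2b, Kmt2c, Kmt2d, Kmt2e, Setd2, Ash1l, Nsd1 and Ezh2, which with Hdac7 make 10 of the 45796 genes in the deposited table, found by gene symbol. The members were chosen by gene family with measured values of these libraries in view, and the fold changes of imiquimod against sham cream in wild-type cells are taken as the values that selected them. Values of the members in that comparison are therefore a description. The count of members called in it is given beside the share of all genes called, and later under other settings. It is no evidence about them. The libraries fell into 4 groups of 3: NF-kB1-deficient mice given imiquimod cream, wild-type mice given imiquimod cream, NF-kB1-deficient mice given sham cream and wild-type mice given sham cream. NF-kB1 is an NF-kB subunit made as the precursor p105 and processed to p50, and imiquimod is a Toll-like receptor agonist that inflames mouse skin. The altered part of Nfkb1 is not given in the labels, nor whether the loss is limited to some cells or how many animals stand behind a library. Values are normalized 3' tag counts on the linear scale, called normalized values here. The 3' kit reads each transcript near its end, so levels of different genes can be set side by side without a length correction.

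Histone methyltransferases write methyl marks on lysines of the histone tails, and different enzymes write marks of active and of silenced chromatin. Enzymes of the KMT2 (MLL) family methylate lysine residues of histone H3 at promoters and enhancers of active genes, Setd2, Ash1l and Nsd1 act on another H3 lysine in gene bodies and between genes, and Ezh2 is the catalytic subunit of Polycomb repressive complex PRC2. Hdac7 is a class IIa histone deacetylase with little enzymatic activity of its own. It works as a corepressor in T lineage cells and leaves the nucleus when T cell receptor signalling phosphorylates it.

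Promoter sequences are shown for the members whose values differ most in kind: Kmt2a and Hdac7, which had lower values in wild-type imiquimod libraries, and Ezh2, which was above 0 in few libraries. They are RefSeq sequences of build GRCm38.p6, from 250 bases before to 50 bases after an annotated start, and 6 members had entries. Capitals mark CpG dinucleotides in the Kmt2a and Hdac7 lines and the E2F-type motif TTTNNCGC in the Ezh2 line.
Kmt2a, chr9:44881240-44881539, minus strand: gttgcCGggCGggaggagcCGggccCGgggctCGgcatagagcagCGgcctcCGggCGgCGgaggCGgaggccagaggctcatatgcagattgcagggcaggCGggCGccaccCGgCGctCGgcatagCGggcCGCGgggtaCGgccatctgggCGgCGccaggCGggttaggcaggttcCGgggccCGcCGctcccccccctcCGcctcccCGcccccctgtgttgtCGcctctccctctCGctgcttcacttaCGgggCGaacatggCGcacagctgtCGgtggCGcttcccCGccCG
Hdac7, chr15:97831446-97831745, minus strand: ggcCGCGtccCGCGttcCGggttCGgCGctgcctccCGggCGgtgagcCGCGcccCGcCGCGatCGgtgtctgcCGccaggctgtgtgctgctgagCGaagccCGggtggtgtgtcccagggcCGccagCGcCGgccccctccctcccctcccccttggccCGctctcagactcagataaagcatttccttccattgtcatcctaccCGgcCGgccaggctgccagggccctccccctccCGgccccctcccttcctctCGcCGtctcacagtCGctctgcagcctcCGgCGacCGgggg
Ezh2, chr6:47594981-47595280, minus strand: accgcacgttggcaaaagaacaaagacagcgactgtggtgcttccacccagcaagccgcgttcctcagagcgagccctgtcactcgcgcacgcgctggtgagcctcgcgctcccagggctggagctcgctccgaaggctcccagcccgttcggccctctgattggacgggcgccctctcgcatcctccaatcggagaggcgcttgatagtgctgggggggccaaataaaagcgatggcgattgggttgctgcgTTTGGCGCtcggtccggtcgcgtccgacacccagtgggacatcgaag
The Kmt2a promoter held 36 CpGs, more than 93.8% of the 32851 promoters in the table, and the Ezh2 promoter and this Hdac7 promoter held 31 each, more than 89.4%. The median was 7.0 CpGs over all promoters and 23.0 over the 1657 promoters of tested genes. Hdac7 had 3 further annotated starts, with 35, 6 and 5 CpGs, and 3' tags do not show which start was used. The Kmt2c, Setd2 and Kmt2d promoters held 56, 38 and 27 CpGs. The NF-kB-type motif (GGG, any 3 bases, then TTCC), searched on both strands like the other motifs, stood in none of these windows and in 5.56% of all promoters. The ETS-type motif CCGGAAG was likewise in none of them and in 8.86% of all promoters. TTTNNCGC stood only in the Ezh2 window, and in 5.17% of all promoters. No match says only that these letters are not in the window.

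The libraries were shallow. Steps in the low values put the reads on genes at 20507 to 69455 per library, with 1 read worth a normalized value of 0.488 to 1.98. The table holds no value between 0 and 1, so a listed 0 can hide 1 read in the 5 libraries where 1 read is worth less, and 2 reads in wild-type sham replicate 2. Of 14 gamma delta T cell markers, the delta chain locus Tcrd and the gamma constant gene Tcrg-C2 were above 0 in all 12 libraries, while Tcrg-V4, Tcrg-C1, Trdv4 and Trdc were at 0 in all 12. The 6 B cell markers were at 0 throughout, and no other marker list of other cells took more than 0.0655% of a library. For alpha beta T cells this is a weak check, because the listed Trac, Trbc1 and Trbc2 were at 0 in all 12 libraries. Outside the list, the beta chain locus Tcrb stood at 57.4 to 103 and the alpha chain locus Tcra at 0 to 14.2. Nfkb1 was at 5.41, 6.64 and 5.84 in NF-kB1-deficient and at 7.34, 21.0 and 0 in wild-type imiquimod libraries, and at 8.82, 1.09 and 2.52 in NF-kB1-deficient and 6.71, 4.38 and 1.24 in wild-type sham libraries. A 3' tag can lie outside the altered part of the gene, so these values do not check the genotype labels. The strand setting of the counts is not given in the sources used here, so reads of genes that overlap on opposite strands cannot be told apart. Slc48a1 overlaps the last 1000 bases of Hdac7 on the other strand, and Srpk2 those of Kmt2e. Slc48a1 was at 0, 1.05 and 0 in wild-type imiquimod libraries and at 0, 0 and 16.1 in wild-type sham libraries. Srpk2 was at 9.43, 0 and 2.90 in wild-type imiquimod libraries and at 6.15, 4.15 and 9.06 in wild-type sham libraries.

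Hdac7 had the highest level of the 10 genes. Its mean normalized value over the 12 libraries was 50.4, above 99.5% of the 9732 genes above 0 in any library, and it was above 0 in all 12. Kmt2e followed at 16.8, Ash1l at 13.4, Kmt2c at 10.9, Kmt2a at 10.7, Nsd1 at 7.79 and Setd2 at 6.30. Kmt2d at 3.97, Ezh2 at 3.32 and Kmt2b at 2.62 lay under the mean of 5 needed for a test, so 7 of the 10 genes were tested. Apart from Hdac7 these levels rest on few reads: an estimated 713 in all for Hdac7, 233 for Kmt2e, 166 for Kmt2a, 71.0 for Kmt2d, 47.5 for Ezh2 and 40.7 for Kmt2b. Neighbours in the order from Kmt2e down to Setd2 overlapped in their values over libraries, and their order is not fixed by these data.

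**Figure D1:**
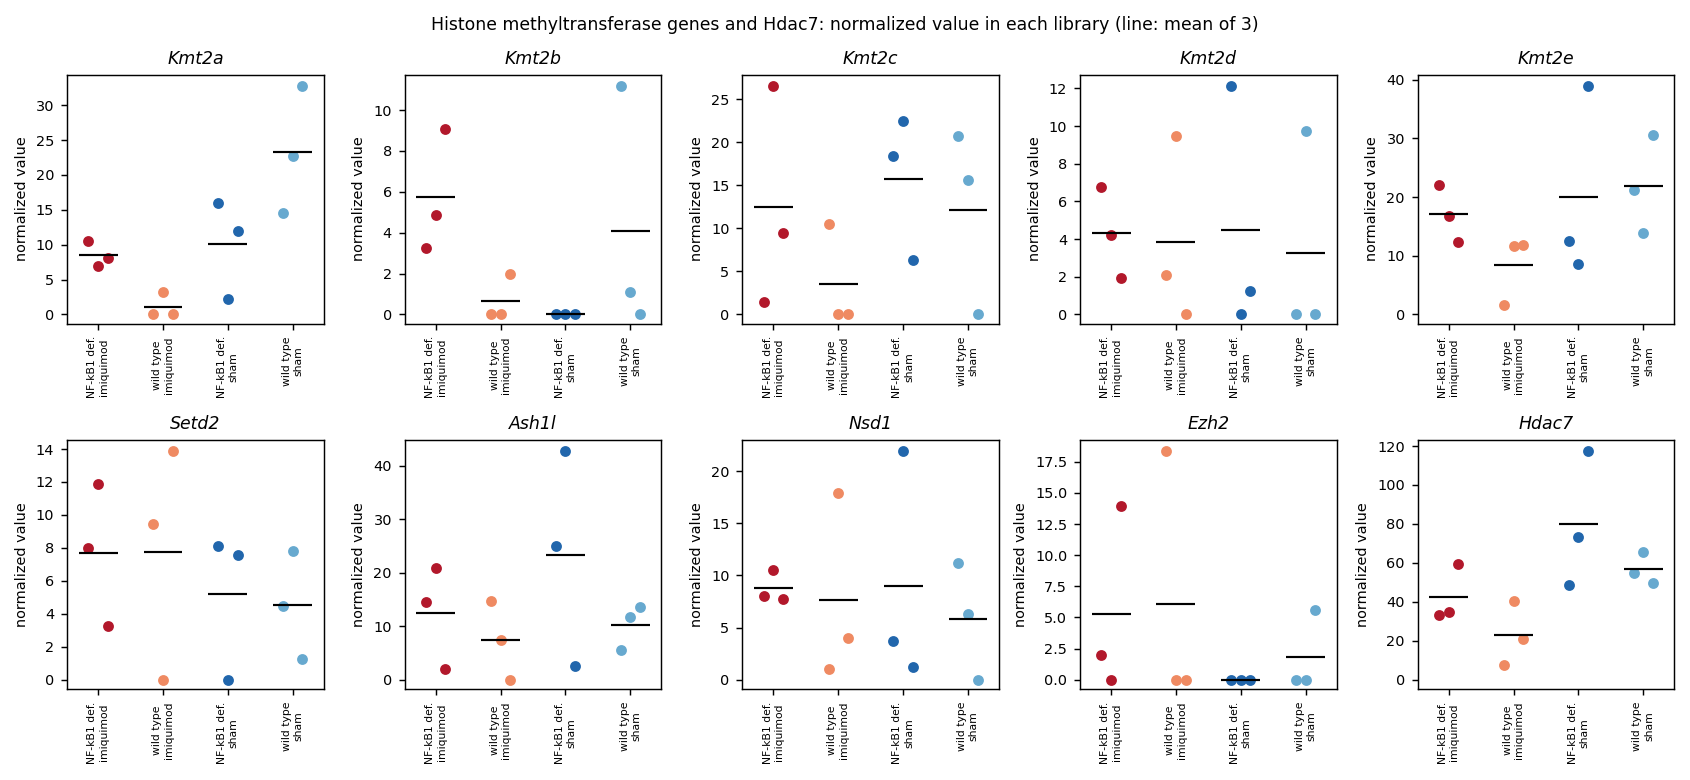
Normalized value (linear scale) of each of the 10 genes in each of the 12 libraries, by group, with a line at the mean of 3. The Hdac7 values of the wild-type imiquimod libraries lie between 7.34 and 40.5, below the 3 wild-type sham libraries, and Kmt2a stands at 0 in 2 of 3 wild-type imiquimod libraries.

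Kmt2a (Entrez 214162; chromosome 9, 44803355 to 44881296, minus strand, protein coding; all gene models are GENCODE M21 on GRCm38) encodes the MLL1 methyltransferase, which keeps Hox and other lineage genes active. Under imiquimod it was at 10.5, 6.99 and 8.11 in the NF-kB1-deficient libraries and at 0, 3.16 and 0 in the wild-type libraries. Under sham cream it was at 15.96, 2.19 and 11.95 in the NF-kB1-deficient libraries and at 14.5, 22.7 and 32.8 in the wild-type libraries. The wild-type imiquimod libraries thus lay below the other groups, except that NF-kB1-deficient sham replicate 2 (2.19) lay among them. In reads, Kmt2a had an estimated 3 of 91273 in the wild-type imiquimod libraries together and 85.9 of 127956 in the wild-type sham libraries. At the wild-type sham mean, the zeros of wild-type imiquimod replicates 1 and 3 would have been 22.3 and 11.8 reads. A count of 0 allows a normalized value of up to 3.14 and 5.94 there (3 reads, counting error only). The fitted log2 fold change was -3.85 ± 1.08 (SE) in wild-type cells on the log2(normalized value + 1) scale, which shrinks the folds of low genes.

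The other KMT2 genes were read less evenly. Kmt2e (Entrez 69188; chromosome 5, 23434441 to 23504235, plus strand), an MLL family member not known as an active histone methyltransferase, was above 0 in all 12 libraries. Under imiquimod it was at 22.0, 16.8 and 12.3 in NF-kB1-deficient and at 1.57, 11.6 and 11.9 in wild-type libraries. Under sham cream it was at 12.5, 8.58 and 39.0 in NF-kB1-deficient and at 21.2, 13.9 and 30.5 in wild-type libraries. Wild-type imiquimod libraries lay below wild-type sham libraries without overlap, and below NF-kB1-deficient imiquimod libraries as well. The log2 fold change in wild-type cells was -1.55 ± 0.81 (SE), and -0.78 without wild-type imiquimod replicate 1, the lowest library.

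Kmt2c (Entrez 231051; chromosome 5, 25271798 to 25498783, minus strand) and Kmt2d (Entrez 381022; chromosome 15, 98831669 to 98871204, minus strand) encode the related MLL3 and MLL4 enzymes, known for monomethylation at enhancers. Under imiquimod Kmt2c was at 1.502, 26.5 and 9.41 in NF-kB1-deficient and at 10.5, 0 and 0 in wild-type libraries. Under sham cream it was at 18.4, 22.4 and 6.29 in NF-kB1-deficient and at 20.7, 15.6 and 0 in wild-type libraries. The groups overlapped in each pair. Kmt2d ranged from 0 to 12.1 over all libraries, with group means of 4.30 (NF-kB1-deficient imiquimod), 3.86 (wild-type imiquimod), 4.46 (NF-kB1-deficient sham) and 3.25 (wild-type sham). Kmt2b (Entrez 75410; chromosome 7, 30568858 to 30588726, minus strand), the closest relative of Kmt2a, was at 3.25, 4.89 and 9.08 in NF-kB1-deficient imiquimod libraries and at 0, 0 and 1.98 in wild-type imiquimod libraries. It was listed at 0 in the 3 NF-kB1-deficient sham libraries and at 11.2, 1.08 and 0 in the wild-type sham libraries. Kmt2b was too low to be tested, and nothing is read from these differences. At the wild-type sham mean, its zeros in NF-kB1-deficient sham libraries would have been 5.56, 3.73 and 3.25 reads.

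The enzymes of the gene-body marks varied widely within groups, except Nsd1 in NF-kB1-deficient imiquimod libraries. Setd2 (Entrez 235626; chromosome 9, 110532597 to 110618633, plus strand), which trimethylates H3 along transcribed genes, was at 8.01, 11.9 and 3.24 in NF-kB1-deficient and at 9.43, 0 and 13.9 in wild-type imiquimod libraries. Under sham cream it was at 8.09, 0 and 7.55 in NF-kB1-deficient and at 4.47, 7.81 and 1.24 in wild-type libraries. Nsd1 (Entrez 18193; chromosome 13, 55209782 to 55318325, plus strand), which dimethylates the same lysine, averaged 8.76 ± 1.49 in NF-kB1-deficient imiquimod and 7.64 ± 9.004 in wild-type imiquimod libraries (mean ± SD, n = 3 each). It averaged 8.94 ± 11.3 in NF-kB1-deficient sham and 5.84 ± 5.61 in wild-type sham libraries. Ash1l (Entrez 192195; chromosome 3, 88950622 to 89079375, plus strand), which opposes Polycomb silencing, was at 14.5, 21.0 and 1.95 in NF-kB1-deficient and at 14.7, 7.37 and 0 in wild-type imiquimod libraries. Under sham cream Ash1l was at 24.99, 42.7 and 2.52 in NF-kB1-deficient and at 5.59, 11.7 and 13.7 in wild-type libraries. For these 3 genes the spread within a group was often as wide as the distance between groups. The groups overlapped in every pair compared.

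Ezh2 (Entrez 14056; chromosome 6, 47530139 to 47595341, minus strand) was above 0 in 4 of 12 libraries. It was at 2.003, 0 and 13.9 in NF-kB1-deficient and at 18.3, 0 and 0 in wild-type imiquimod libraries. It was listed at 0 in the 3 NF-kB1-deficient sham libraries and at 0, 0 and 5.59 in the wild-type sham libraries. These amount to an estimated 25.5, 17.5, 0 and 4.50 reads per group in that order, and 3 of the 4 libraries above 0 were imiquimod libraries. With 8 libraries at 0, a difference between groups was not detectable at this depth.

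Hdac7 (Entrez 56233; chromosome 15, 97792664 to 97844502, minus strand) was the best measured of the 10. Under imiquimod it was at 33.0, 34.6 and 59.4 in NF-kB1-deficient and at 7.34, 40.5 and 20.8 in wild-type libraries. Under sham cream it was at 48.5, 73.4 and 118 in NF-kB1-deficient and at 54.8, 65.4 and 49.7 in wild-type libraries. Wild-type imiquimod libraries lay below wild-type sham libraries without overlap, whereas the groups of the other 3 pairs overlapped. The mean was 22.9 ± 16.7 in wild-type imiquimod and 56.6 ± 8.02 in wild-type sham libraries (SD, n = 3 each), with a log2 fold change of -1.55 ± 0.47 (SE). Without wild-type imiquimod replicate 1, the lowest library, it was -0.93.

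Imiquimod against sham cream in wild-type cells asks what the treatment changes when NF-kB1 is present. Of the 7 genes tested, 5 had negative and 2 (Setd2 and Nsd1) positive log2 fold changes, with a median of -1.55, against -0.07 over the 1571 genes tested, of which 51.9% were negative. The fit over all genes (limma, Benjamini-Hochberg, adjusted p under 0.05) counted 2 of the 7, Kmt2a and Hdac7, among its calls. Of all tested genes 3.25% were called and 1.59% were called lower, and 19.9% had an unadjusted p under 0.05. The groups did not overlap for 3 of the 7 (Kmt2a, Kmt2e and Hdac7), all lower, where 10.8% of tested genes lay lower without overlap. The comparison chose the members, so nothing is read from these counts. They also depend on single libraries: neither gene was counted without wild-type sham replicate 2, wild-type sham replicate 3 or wild-type imiquimod replicate 1, Kmt2a not without wild-type imiquimod replicate 3, and Hdac7 not without wild-type sham replicate 1 or NF-kB1-deficient sham replicate 3. In bulk RNA, fewer cells that express a gene and less of its RNA per cell cannot be told apart.

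The same question in NF-kB1-deficient cells uses libraries that the first comparison did not. No member was called, and limma called 0% of all tested genes, while 3.37% had p values below 0.05 before adjustment, none of the 7 members among them. For Kmt2a the fitted log2 difference was 0.086 ± 1.08 (SE, adjusted p = 0.996 by limma), with a 95% interval from -2.05 to 2.22. Hdac7 averaged 42.3 ± 14.8 in imiquimod and 79.8 ± 35.02 in sham libraries (SD, n = 3 each), with -0.86 ± 0.47 (unadjusted p = 0.0680, limma adjusted p = 0.996) and an interval from -1.78 to 0.064. Kmt2e (0.025 ± 0.81), Setd2 (0.89 ± 1.19) and Nsd1 (0.64 ± 1.14) had positive values, and Kmt2c (-0.74 ± 1.15) and Ash1l (-0.66 ± 1.03) negative ones, each with a limma adjusted p of 0.996. The sign depends on the scale for Kmt2a, Kmt2e and Nsd1, whose linear means were lower in imiquimod than in sham libraries (8.54 and 10.04 for Kmt2a, 17.04 and 20.03 for Kmt2e, 8.76 and 8.94 for Nsd1). Of the 7 tested members Setd2 alone had a higher linear mean, 7.71 in imiquimod and 5.21 in sham libraries. On the log2 scale the median of the 7 was 0.025 with 3 negative, against 0.14 over all tested genes with 44% negative.

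The effect of NF-kB1 loss under imiquimod was compared next; it shares its wild-type imiquimod libraries with the first comparison and is no independent evidence. All 7 log2 fold changes were positive, although the linear mean of Setd2 was 7.71 in NF-kB1-deficient and 7.77 in wild-type libraries, with a median of 1.09, against 0.13 over all tested genes, of which 46.3% were negative. None was called, where limma called 1.78% of tested genes. An unadjusted p under 0.05 was found for 2 of the 7 and for 14.3% of tested genes. Kmt2a averaged 8.54 ± 1.80 in NF-kB1-deficient and 1.05 ± 1.82 in wild-type libraries (SD, n = 3 each), and the fitted difference was 2.55 ± 1.08 on the log2 scale (SE, unadjusted p = 0.0196, limma adjusted p = 0.240). Hdac7 averaged 42.3 ± 14.8 and 22.9 ± 16.7 in NF-kB1-deficient and wild-type libraries, with 1.09 ± 0.47 (unadjusted p = 0.0208, limma adjusted p = 0.244). Kmt2c (1.99 ± 1.15, limma adjusted p = 0.432) and Kmt2e (1.24 ± 0.81, limma adjusted p = 0.510) followed. Kmt2a and Kmt2e lay higher in NF-kB1-deficient libraries without overlap, as did 10.8% of tested genes. Depth differed between these groups, with an estimated 164154 reads in NF-kB1-deficient and 91273 in wild-type imiquimod libraries together. The part of depth in the positive signs was not tested.

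Under sham cream, where the wild-type libraries are again shared, the genotypes showed no called member, and limma called 0% of tested genes, and 6.11% had an unadjusted p below 0.05. Log2 fold changes of NF-kB1-deficient against wild-type cells ran from -1.38 ± 1.08 for Kmt2a (SE, limma adjusted p = 0.947) to 1.07 ± 1.15 for Kmt2c (limma adjusted p = 0.947), and 3 of the 7 were negative, against 51.3% of tested genes. The difference between the imiquimod responses of the genotypes subtracts the wild-type fold change that chose the members, so a positive sign was favoured by the choice and is no evidence about them. It was positive for all 7, with a median of 0.71, against 0.24 over all tested genes, of which 45% were negative. It was 3.93 ± 1.53 for Kmt2a (unadjusted p = 0.0111, limma adjusted p = 0.2996) and 0.69 ± 0.66 for Hdac7 (limma adjusted p = 0.781), and no member was among the 0.446% of genes called, while 10.8% had an unadjusted p under 0.05. No difference between the responses passed the test for any of the 7.

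**Figure D2:**
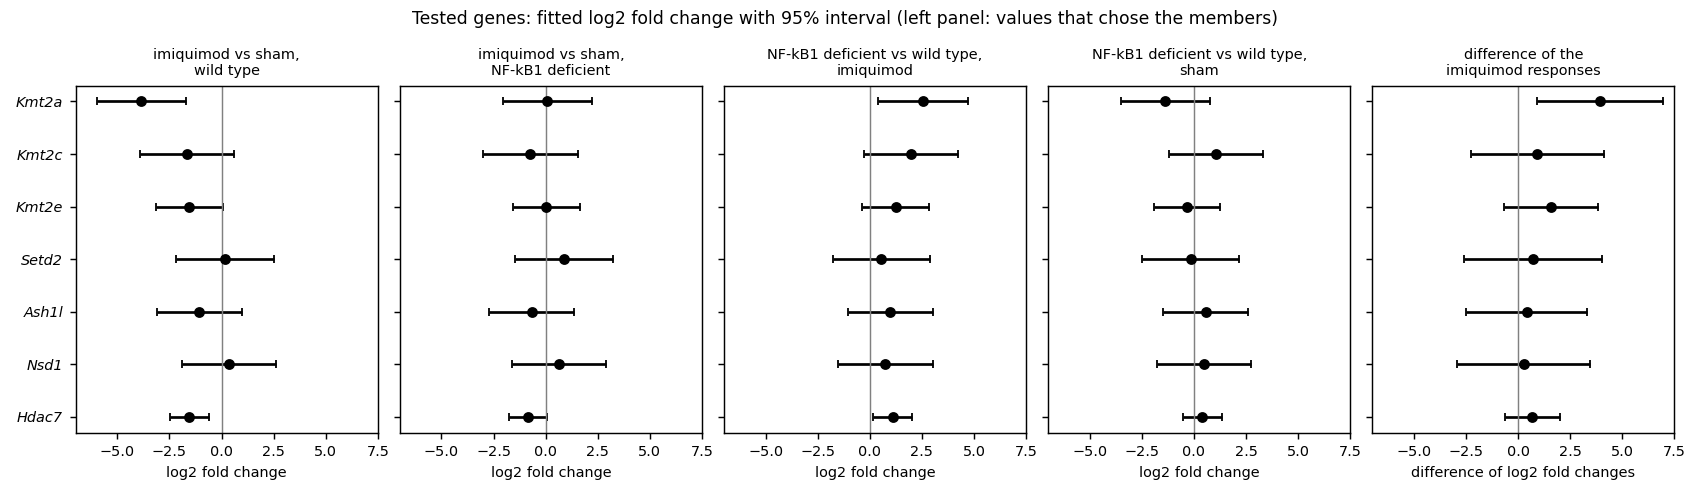
Fitted log2 fold change (x axis, log2(normalized value + 1) scale) of the 7 tested genes with 95% intervals, in 5 panels for the 4 comparisons and the difference of the imiquimod responses. The wild-type panel, where Kmt2a stands at -3.85 and Hdac7 at -1.55, shows the values that chose the members and is a description, and the intervals of Kmt2c, Kmt2e, Setd2, Ash1l and Nsd1 cross 0 in each panel.

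Over the 12 libraries, Pearson's r between members (log2 scale) was positive in 12 of 21 pairs and ran from -0.34 to 0.74, with a median of 0.15. The pairs with the highest r were Kmt2e with Hdac7 (0.74), Kmt2a with Kmt2e (0.73) and Kmt2a with Hdac7 (0.68), and the lowest was Setd2 with Hdac7 (-0.34). These are descriptions over libraries that share groups and differ in depth. Summed over the 9 methyltransferases, the normalized value was 76.6, 103 and 67.8 in NF-kB1-deficient and 57.6, 49.5 and 31.7 in wild-type imiquimod libraries. It was 95.7, 97.8 and 69.8 in NF-kB1-deficient and 88.9, 88.9 and 83.8 in wild-type sham libraries. The wild-type imiquimod libraries lay below those of the other groups. The choice of the members favoured this order, so it is a description and no evidence about them. The 7 did not share 1 pattern. The r of each with the mean standardized value of the others ran from -0.24 (Setd2) to 0.58 (Kmt2a). Outside the members, the genes whose values most resembled the mean standardized value of the 7 were Gm4070 (r = 0.95), Ms4a4b (0.92), Vsir (0.90), Ms4a6b (0.90), Zbtb7a (0.90) and Malat1 (0.89), over 12 libraries. They were picked as the highest r of all tested non-members, against a mean shaped by the choice of the members, and are a description. Malat1, an abundant nuclear non-coding RNA, was at 229, 363 and 381 in wild-type imiquimod libraries and at 1417, 1058 and 1246 in wild-type sham libraries.

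Other chromatin regulators were mostly too low to test, and none of those tested was called in any comparison. Of 24 other histone lysine methyltransferases 3 were tested: Nsd3, a relative of Nsd1, Setd5 and Setd1b. In wild-type cells Nsd3 was at 2.10, 0 and 0 in imiquimod and at 2.24, 18.5 and 13.7 in sham libraries (log2 fold change -2.74 ± 1.13, limma adjusted p = 0.147). Setd5 was at 0, 0 and 1.98 in imiquimod and at 15.7, 4.73 and 7.21 in sham libraries (-2.68 ± 1.21, limma adjusted p = 0.181). Both groups were apart, but neither gene passed the test. Setd1b, which encodes a catalytic subunit of the COMPASS complex, averaged 17.7 in imiquimod and 17.4 in sham libraries (log2 fold change -0.18 ± 0.67, limma adjusted p = 0.908), so the sign of the log2 value is opposite to that of the means.

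Genes listed as subunits of KMT2-type or PRC2 complexes gave mixed signs in wild-type cells. Among 15 listed subunits of KMT2-type complexes 3 were tested. Wdr82 (2.05 ± 1.15, limma adjusted p = 0.311) and Hcfc1 (1.41 ± 1.08, 0.497) were positive and Ncoa6 (-1.77 ± 1.24, 0.447) negative on the log2 scale. Wdr82 belongs to the complex of Setd1b, which is not a member. Of 9 other PRC2 components 5 were tested and 4 were positive, with a median of 1.36. The histone chaperone gene Rbbp4 was at 41.4, 47.4 and 58.4 in imiquimod and at 16.2, 11.7 and 17.4 in sham libraries (1.64 ± 0.62, limma adjusted p = 0.115). The PRC2 accessory gene Mtf2 was at 2.10, 0 and 0 in imiquimod and at 4.47, 4.88 and 55.9 in sham libraries (-3.07 ± 1.23, limma adjusted p = 0.135). Of 19 lysine demethylases 4 were tested and 3 were negative, led by Kdm2a (-2.93 ± 1.17) and Phf2 (-2.85 ± 1.14), each with a limma adjusted p of 0.133. Of 15 other deacetylases only Hdac1 (0.26 ± 1.30) and Sirt7 (-0.69 ± 1.16) were tested, with limma adjusted p of 0.932 and 0.787.

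Genes that act with Hdac7 spread to both sides of 0. Of 16 corepressor, MEF2, kinase and 14-3-3 genes 9 were tested, with 5 positive and 4 negative log2 fold changes and a median of 0.22. Prkd2, a kinase that phosphorylates class IIa deacetylases in T cells, was at 0, 0 and 27.7 in wild-type imiquimod and at 5.59, 8.79 and 9.94 in wild-type sham libraries (log2 fold change -1.54 ± 1.26, limma adjusted p = 0.521), with a higher linear mean in imiquimod libraries, 9.24 and 8.10, that rests on 1 library. Of 23 SWI/SNF and CHD remodellers 10 were tested and 6 were negative (median -0.95), with Chd6 at -3.44 ± 1.30 (limma adjusted p = 0.115), and the acetyltransferases Ep300 and Kat6a stood at -0.048 ± 1.28 and 0.26 ± 1.42 (limma adjusted p = 0.989 and 0.935). The linear means had the opposite signs, at 5.55 in imiquimod and 4.14 in sham libraries for Ep300 and at 2.45 and 3.42 for Kat6a.

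Genes of DNA replication and division were higher in the same wild-type imiquimod libraries in which Kmt2a and Hdac7 were low. All 12 tested genes of 20 had positive log2 fold changes in wild-type cells (median 3.30), and Birc5, H2afz, Lig1, Mcm7 and Top2a were called. In NF-kB1-deficient cells 10 of 12 were positive, with a median of 0.77 and none called. The delta chain locus Tcrd was at 14.1, 30.5 and 19.8 in wild-type imiquimod and at 65.8, 68.7 and 76.8 in wild-type sham libraries. The gamma constant gene Tcrg-C2 overlapped between the groups, at 12.3, 22.3 and 18.8 in wild-type imiquimod and at 10.5, 16.96 and 28.3 in wild-type sham libraries. The sum of all 14 markers was 39.1, 101 and 62.4 in wild-type imiquimod and 94.97, 121 and 129.9 in wild-type sham libraries, and the groups overlapped. Of the 14 markers 5 were at 0 in the 3 wild-type imiquimod libraries and 8 in the 3 wild-type sham libraries. The plasma cell markers summed to 21.5, 15.8 and 6.93 in wild-type imiquimod and to 0, 2.93 and 6.21 in wild-type sham libraries, with Jchain and Mzb1 at 0 in both groups. In NF-kB1-deficient libraries they summed to 2.25, 4.89 and 21.7 under imiquimod and to 0, 0 and 0 under sham cream. Only NF-kB1-deficient imiquimod replicate 3 had Jchain (7.14) and Mzb1 (4.54) above 0. The part of these shifts in the values of Kmt2a and Hdac7 was not tested.

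**Figure D3:**
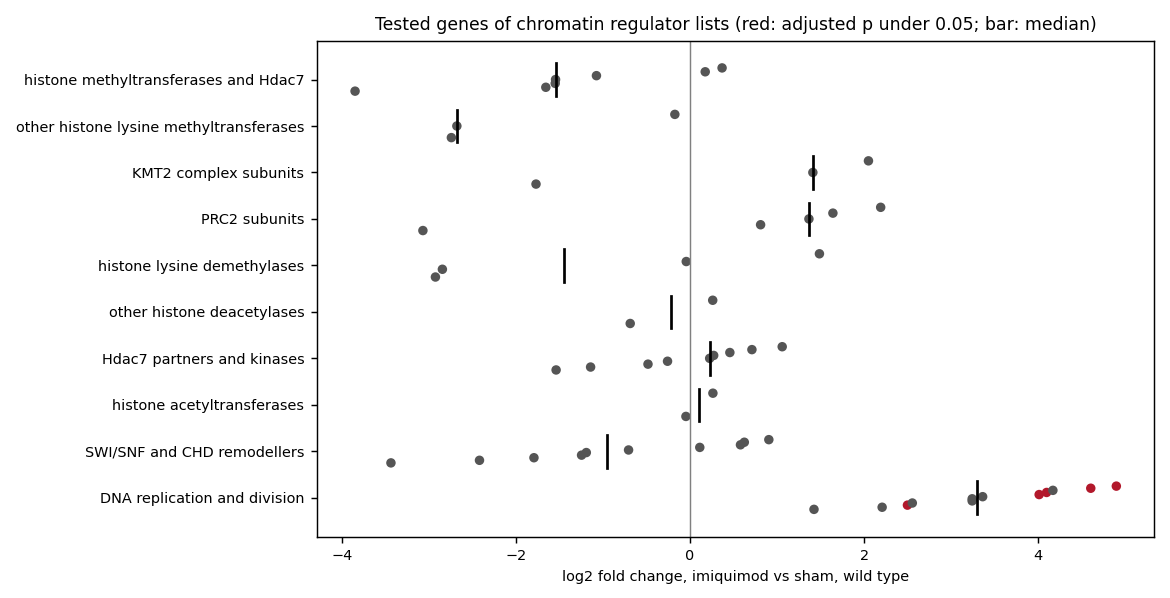
Log2 fold change of imiquimod against sham in wild-type cells (x axis) for each tested gene of 10 lists, with the median as a bar and called genes in red, except that the 7 tested members, chosen on these values, carry no call colour. The 12 tested replication and division genes lie above 0 (median 3.30), while the lists of chromatin regulators spread to both sides of 0 or hold too few tested genes to place.

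The members also share long transcripts, which the rule did not use. The longest annotated transcript of Kmt2d was 19.8 kb, of Kmt2a 16.5 kb, of Kmt2c 14.97 kb, of Nsd1 12.8 kb and of Ash1l 11.6 kb, against a median of 3.64 kb over the 1547 tested genes with a gene model. Kmt2b (8.47 kb), Setd2 (8.35 kb), Kmt2e (7.32 kb) and Hdac7 (5.18 kb) were also above the median, and Ezh2 (2.79 kb) was below it. Transcript length went with the fold change in wild-type cells. With the genes cut by transcript length into 5 bins, 66.8% of the 310 genes in the longest bin had a negative log2 fold change (median -0.59), and 36.5% of the 310 in the shortest (median 0.48). In NF-kB1-deficient cells the same bins had 50.6% (median -0.018) and 38.1% (median 0.23) negative. Of the 7 tested members 6 were in the longest bin and Hdac7 in the bin next to it, whose median in wild-type cells was -0.52. The part of transcript length in the members' values was not tested.

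**Figure D4:**
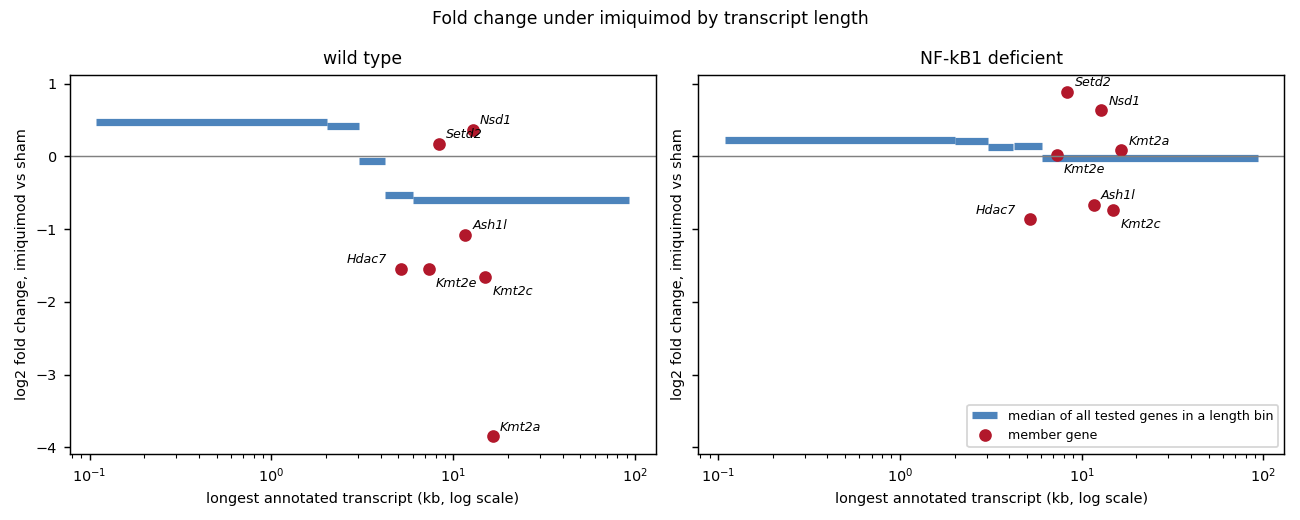
Log2 fold change of imiquimod against sham by longest annotated transcript (x axis, kb, log scale), in wild-type (left) and NF-kB1-deficient cells (right). Blue bars are medians of all tested genes in 5 bins of transcript length, reaching -0.59 in the longest bin in wild-type cells, and red points are the 7 tested members, of which Kmt2a (-3.85) lies farthest below its bin.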

How the data were processed

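RNA of 12 libraries was extracted with Trizol and made into 3' libraries with the QuantSeq FWD kit, per the labels' protocols. The submitters' processing notes name build mm10; sources used here do not give aligner, counter or normalization. The authors deposited log2 normalized read counts. These were taken to the linear scale, with a listed 0 kept as 0. The worth of 1 read was estimated from steps in the low values. Among values under 20 reads, 71.0% to 80.2% were whole (tolerance 0.01 read), so no count test was run. No 2 libraries were identical (0 of 66 pairs).

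The 1571 genes averaging 5 or more were tested on log2(normalized value + 1) with limma 3.58.1 in R 4.3.3, in 1 fit of all 12 libraries with eBayes trend and robust (8 residual and a median of 145 prior degrees of freedom). P-values were adjusted by Benjamini-Hochberg over all 1571 genes per comparison, with calls at an adjusted p under 0.05. Over tested genes the median SE was 1.12 (log2). Whether replicates were separate animals is not stated. P-values measure only spread among the samples, possibly technical, and the moderation pools it over genes of like level. An SE is thus mostly not the gene's own spread. For Hdac7 it was 0.47, and 0.75 without trend and robust. The members and lists were chosen with earlier results of these data known. Text names all 10 members, up to 4 genes of each list by lowest p in wild-type cells with any called gene, and the 6 genes of most similar pattern; of these only some are printed. Srpk2, Slc48a1, Tcrb, Tcra and the cell markers were added by overlap or as markers. Gene models came from GENCODE M21 and promoters from RefSeq. Alternatives were other pseudocounts, filters, scaling, moderation, a replicate block and leaving out each library.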

Additional observations from a re-analysis of the deposited data

How the results depend on the processing

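In wild-type cells under imiquimod, limma called 51 genes, against 26 with a pseudocount of 0.1, 11 with no filter, 18 without trend and robust moderation and 28 with the compared groups alone. Of the members 2 were called, against 0 with a pseudocount of 0.1, with no filter or with the compared groups alone, and 1 with a pseudocount of 10, a mean of at least 20 (Kmt2a was then not tested) or no trend and robust moderation. Leaving out 1 library gave 26 to 73 genes and 0 to 2 members; Kmt2a ran from -4.53 to -3.51, Hdac7 from -2.09 to -0.93, Kmt2e from -1.94 to -0.78 and Kmt2c from -3.07 to -0.85, with no sign change. The wild-type comparison chose the members, so their counts and signs in it are no evidence about them under any setting. In NF-kB1-deficient cells 0 genes were called, 1 with the compared groups alone, and 0 without any 1 library. Between genotypes under imiquimod 28 were called, against 18 with a pseudocount of 0.1, 3 with no filter and 0 without trend and robust moderation (4 to 42 with 1 library left out). For the difference of responses 7 were called, against 13 at a mean of at least 20, 1 with no filter and 0 without trend and robust moderation (2 to 12). Under sham cream the range was 0 to 1.

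Scaling to equal totals moved the median of all genes in wild-type cells to -0.25, against -0.07, and the split of calls to 19 higher and 29 lower, against 26 and 25; between genotypes under imiquimod it gave 25 and 5, against 20 and 8, and in the difference of responses 6 and 4, against 3 and 4. With a pseudocount of 10 the split was 47 and 25 in wild-type cells and turned to 11 and 17 between genotypes under imiquimod. With the compared groups alone it was 19 and 9 in wild-type cells and turned to 5 and 17 between genotypes under imiquimod. No member changed sign under equal totals.

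Of 696 alternative log2 fold changes of members, 637 kept direction and side of the threshold, 17 lost the call and 42 changed sign. Only Kmt2a and Hdac7 in wild-type cells had a call to lose. Kmt2a kept it in 5 of 8 other settings and in 8 of 12 fits with 1 library left out. Hdac7 kept it in 4 of 9 and in 7 of 12. Signs changed for Setd2 in wild-type cells (-0.62, pseudocount 0.1); for Kmt2a (-0.046) and Kmt2e (-0.033) in NF-kB1-deficient cells (pseudocount 10); for Setd2 under sham cream (0.044 with a pseudocount of 10, 0.23 with values under 2 set to 0); and in the difference of responses for Nsd1 (-0.31, pseudocount 0.1) and Ash1l (-0.15 with a pseudocount of 10, -0.11 with values under 2 set to 0). With 1 library left out, the ranges that crossed 0 were as follows. In wild-type cells Setd2 ran from -0.56 to 1.39, Ash1l from -1.89 to 0.097 and Nsd1 from -0.71 to 1.11. In NF-kB1-deficient cells Kmt2a ran from -0.65 to 0.55, Kmt2c from -1.55 to 0.18, Kmt2e from -0.40 to 0.63, Setd2 from -0.16 to 1.43, Ash1l from -1.75 to 0.22 and Nsd1 from -0.095 to 1.58. Under sham cream Kmt2c ran from -0.35 to 1.87, Kmt2e from -0.94 to 0.088, Setd2 from -0.70 to 0.89, Ash1l from -0.16 to 1.65 and Nsd1 from -0.60 to 1.21. Under imiquimod Setd2 ran from -0.66 to 1.29 and Ash1l from -0.19 to 1.86. In the difference of responses Setd2 ran from -0.50 to 1.45, Ash1l from -0.76 to 1.29 and Nsd1 from -0.48 to 1.35. The cause was not tested.

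Replicate numbers were compared on each library's deviations from its group mean (log2 scale, tested genes), not on whole profiles. Between groups, the deviations of libraries of 1 replicate number correlated at most weakly (r -0.0098 to 0.061 over 18 pairs, 0 over 0.1). Pairs of other numbers had r of -0.064 to 0.037 over 36 pairs. Of the 12 libraries 10 correlated best with their own number, and the main fit did not include replicate number. With a replicate block 55 genes were called in wild-type cells, 32 between genotypes under imiquimod and 7 for the difference of responses. The 55 held 2 members, a count that is again no evidence about them. The depth of 20507 to 69455 reads limits all members, and Hdac7 least. It limits Hdac7 too in wild-type imiquimod libraries, which held the fewest estimated Hdac7 reads of the 12 libraries. Replicate 1 of that group, without which the log2 fold change in wild-type cells was -0.93, held an estimated 7.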
